A study of Mus musculus with 7 samples.

Results

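The uroplakins are a family of 5 membrane protein genes (Upk1a, Upk1b, Upk2, Upk3a and Upk3b), taken by their symbols from 19938 genes measured in Mfrp rd6 and wild-type mice. The tissue was the RPE (retinal pigment epithelium), which lies behind the photoreceptors and serves them. All 5 were measured, each by 1 probe set annotated to that gene alone. The family was taken up because Upk3b was already known to be among the largest falls in this contrast, so the values of its members in this contrast are given as a description, and any call on a member from the fit of all genes is no independent evidence.

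The Mfrp rd6 group held 3 arrays and the wild-type group 4, all from C57Bl/6J mice. The rd6 allele is a recessive germline mutation of Mfrp, whose product sits in the RPE cell membrane, so every cell of the mutant mouse carries it. The age field of the labels gives 12 weeks for the Mfrp rd6 samples and 8 weeks for the wild-type samples, so age and genotype cannot be told apart by that field, while the growth protocol gives 12 weeks for Mfrp rd6 replicate 1 only. The labels do not say whether replicates came from separate animals or how many animals were pooled, so spreads and p-values measure no more than how these samples differ from each other, and that may be technical. The RPE was shaken loose from eyecups without cornea and lens, and whatever else came loose was measured with it.

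Uroplakins are best known from the urothelium, the lining of the urinary tract, where they are packed into rigid plaques on the surface of the umbrella cells. Upk1a and Upk1b are tetraspanins, proteins that cross the membrane several times, while Upk2, Upk3a and Upk3b cross it once. The proteins form pairs, Upk1a with Upk2 and Upk1b with Upk3a or Upk3b. Outside the urinary tract, Upk1b is also made by surface epithelium of the eye, and Upk3b is widely used as a marker of mesothelium, the lining of body cavities.

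The promoters of Upk3b and Upk3bl are shown because Upk3b differed widely between the groups while Upk3bl, the Upk3b-like gene next to it on chromosome 5, had nearly the same mean in both. RefSeq's promoter table (GRCm38.p6), which holds 250 bases before the transcript start and 50 after it, had an entry for Upk3bl and for 3 of the 5 members. The Upk3b promoter lies on the plus strand at chr5:136038246-136038545 and that of Upk3bl on the plus strand at chr5:136057017-136057316. The capitals mark the searched motif CATGTG, a form of the E-box that the pigment cell factor Mitf can bind.
Upk3b: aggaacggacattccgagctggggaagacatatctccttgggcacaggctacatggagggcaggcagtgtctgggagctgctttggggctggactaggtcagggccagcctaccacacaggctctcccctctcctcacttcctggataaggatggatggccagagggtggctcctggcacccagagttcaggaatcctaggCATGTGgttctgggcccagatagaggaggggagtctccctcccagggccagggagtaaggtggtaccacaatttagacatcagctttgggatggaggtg
Upk3bl: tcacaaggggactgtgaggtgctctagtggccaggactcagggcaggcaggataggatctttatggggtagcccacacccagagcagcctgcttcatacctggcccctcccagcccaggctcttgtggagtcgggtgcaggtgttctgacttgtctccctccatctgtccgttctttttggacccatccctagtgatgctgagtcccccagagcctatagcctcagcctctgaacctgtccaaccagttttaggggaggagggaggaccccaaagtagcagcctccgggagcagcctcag

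Of 5 motifs searched on both strands, the Upk3b promoter held 1, a CATGTG that starts 49 bases before the transcript start. The first motif was TAATCC, which Otx factors bind. The E-box was searched in the form CACGTG as well as in the form with a T at its centre shown above. Factors of the GATA family bind AGATAA. The last motif was AACCGG, the core that grainyhead-like factors bind. CATGTG or its reverse complement was present in 14.2% of the 32851 promoters in the table. The Upk3bl and Upk1a promoters held 0 of the 5 motifs. The Upk3a promoter held 1 TAATCC, present in 7.06% of promoters, and 1 AGATAA, present in 11.2%. No match overlapped another. The GC content was 58.7% for Upk3b, 59.0% for Upk3bl, 54.7% for Upk1a and 52.3% for Upk3a. These matches describe the letters only.

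Levels below are the authors' RMA values, on a log2 scale, and a difference is Mfrp rd6 minus wild type on that scale, with a standard error (SE) and 95% confidence interval from limma's fit of all genes. Levels of different genes come from different probe sets. They are set against each other only roughly, to call a gene bright or dim or to average a list. In array background terms, 1015 olfactory receptor genes, which belong to the nose, had a 95th percentile of 5.59 in Mfrp rd6 and 5.63 in wild type, and all 5 members lay above it in both groups.

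Upk3b, which carries a single membrane span and pairs with Upk1b, was 6.52-fold lower in Mfrp rd6. Its levels were 6.80, 6.74 and 7.0 in Mfrp rd6 replicates 1 to 3, against 8.93, 9.95, 9.72 and 9.61 in wild-type replicates 1 to 4. The groups did not overlap, and the highest Mfrp rd6 array lay 1.93 below the lowest wild-type array. The means were 6.85 ± 0.14 (SD, n = 3) in Mfrp rd6 and 9.55 ± 0.44 (SD, n = 4) in wild type, a difference of -2.71 (SE 0.20, interval -3.16 to -2.25). The Mfrp rd6 arrays stood close together, and wild-type replicate 1 was the lowest of its group. Ordered from the lowest difference, Upk3b was number 3 of the 19938 genes. In RNA from a whole pellet, fewer cells that make a transcript and less of it in each cell cannot be told apart.

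**Figure D1:**
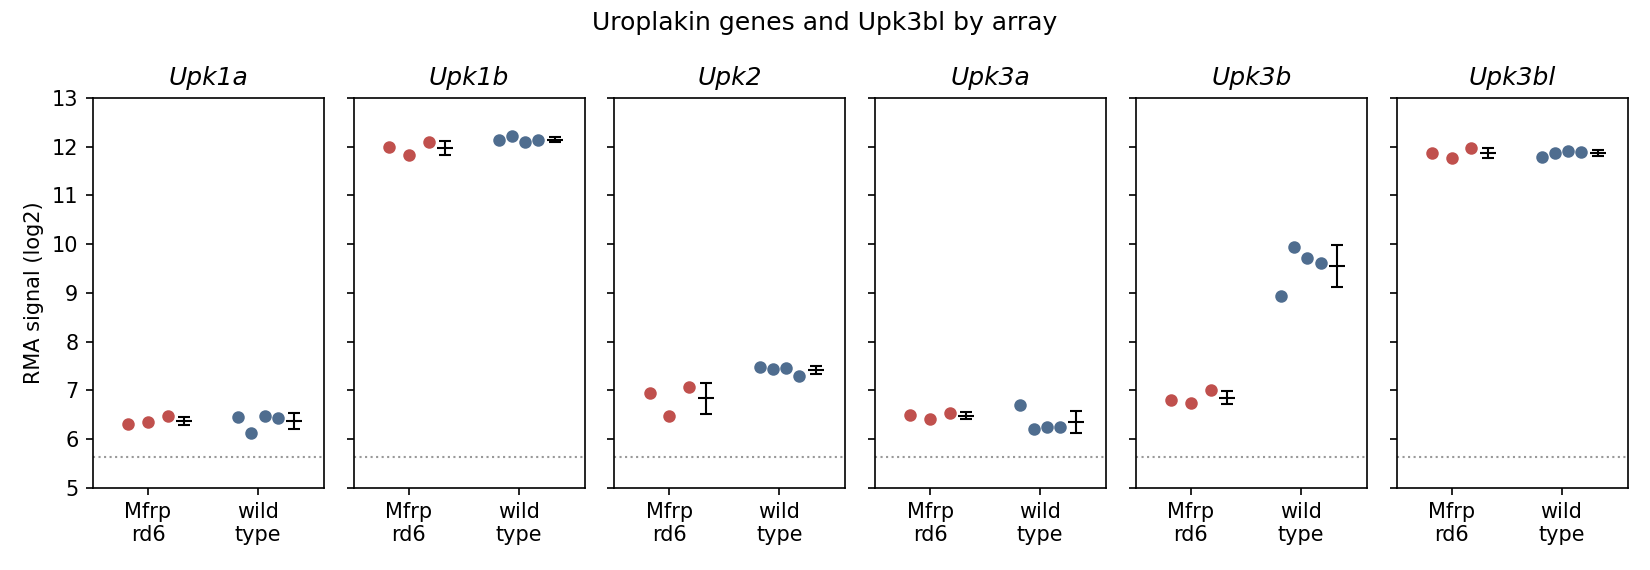
RMA signal (log2) of the 5 uroplakin genes and Upk3bl on each array (points, red for Mfrp rd6 and blue for wild type, replicates from left to right), with the group mean ± SD in black and the 95th percentile of olfactory receptor genes in wild type as a dotted line. Upk3b lies between 6.74 and 7.0 on the Mfrp rd6 arrays and between 8.93 and 9.95 on the wild-type arrays, and Upk2 is the other gene whose groups do not overlap.

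Upk2, the partner of Upk1a, was lower in Mfrp rd6 by a smaller amount. It read 6.95, 6.48 and 7.07 in Mfrp rd6 replicates 1 to 3, against 7.48, 7.43, 7.45 and 7.30 in wild-type replicates 1 to 4. The groups did not overlap, with a gap of 0.23 between them, and Mfrp rd6 replicate 2 was the lowest array. The means were 6.83 ± 0.31 (SD, n = 3) in Mfrp rd6 and 7.42 ± 0.08 (SD, n = 4) in wild type, a difference of -0.58 (SE 0.13, interval -0.87 to -0.29). Without Mfrp rd6 replicate 2 the Upk2 difference was -0.40. Upk2 was not called over all genes (limma adjusted p = 0.0548), and 4 of 21 alternative analyses called it.

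Upk1b, the tetraspanin that pairs with Upk3b, was bright on every array and differed little. Its levels were 12.00, 11.82 and 12.10 in Mfrp rd6, against 12.13, 12.21, 12.10 and 12.14 in wild type. The groups touched at 12.10, and Mfrp rd6 replicate 2 was again the lowest. The mean was 11.97 ± 0.14 (SD, n = 3) in Mfrp rd6 and 12.14 ± 0.05 (SD, n = 4) in wild type, a difference of -0.17 (SE 0.08, interval -0.35 to 0.01). Without Mfrp rd6 replicate 2 the Upk1b difference was -0.09.

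The remaining members overlapped between the groups. Upk1a, the tetraspanin partner of Upk2 and the bladder receptor of the adhesin of uropathogenic bacteria, read 6.30, 6.34 and 6.48 in Mfrp rd6, against 6.45, 6.13, 6.48 and 6.43 in wild type. The Upk1a difference was 0.00 (SE 0.10, interval -0.22 to 0.22). Upk3a, the urothelial counterpart of Upk3b, read 6.50, 6.41 and 6.54 in Mfrp rd6, against 6.70, 6.21, 6.25 and 6.25 in wild type. The Upk3a difference was 0.13 (SE 0.12, interval -0.13 to 0.40), and wild-type replicate 1 stood above the other wild-type arrays. An interval that holds 0 does not show that the levels were alike. Upk1a averaged 6.37 in both groups, and Upk3a 6.48 in Mfrp rd6 and 6.35 in wild type. Both lay not far above the olfactory receptor percentile, and RMA understates differences of dim probe sets.

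At an adjusted p under 0.05 over all genes (limma, Benjamini-Hochberg), 1 of the 5 members, Upk3b, was called lower and 0 were called higher. Of all genes tested, 2.15% were called, 0.813% lower and 1.34% higher. Upk3b and Upk2 were the 2 members whose groups did not overlap with the lower values in Mfrp rd6, as in 9.82% of all genes, while 5.52% of all genes lay apart in the other direction. Nothing is read from these counts, since this contrast led to the choice of the family. The median difference of the members was -0.17, beside -0.02 over all genes.

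Upk3bl, a relative of Upk3b that was not among the 5 members, was bright and level. It read 11.88, 11.76 and 11.97 in Mfrp rd6, against 11.78, 11.88, 11.92 and 11.90 in wild type. The means were 11.87 ± 0.11 (SD, n = 3) in Mfrp rd6 and 11.87 ± 0.06 (SD, n = 4) in wild type, a difference of 0.00 (SE 0.08, interval -0.17 to 0.17, limma adjusted p = 1). In 5 of the 6 genes, Upk1a being the exception, Mfrp rd6 replicate 2 was the lowest array of its group. The gap to the next array was small in Upk3b, at 6.74 beside 6.80. How often that array was the lowest over all genes was not counted. On Mfrp rd6 replicate 2 the mean of 24 skeletal muscle markers was 8.23, beside 7.94 and 7.45 on the other Mfrp rd6 arrays. That of 20 microglia and macrophage markers was 9.06, beside 8.66 and 8.54. A link between these means and the uroplakin values was not tested.

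The members lie on 5 chromosomes, Upk3b on 5, Upk1a on 7, Upk2 on 9, Upk3a on 15 and Upk1b on 16. The 3 measured protein-coding genes on each side of every member were set beside it, in the gene order of RefSeq's GRCm38.p6 table. Of these 30 neighbours, 0 were called at an adjusted p under 0.05 (limma), beside 2.15% of all genes. Of the 30, 3 had an unadjusted p under 0.05, as had 15.4% of all genes, and the smallest adjusted p was 0.202. Their differences ran from -0.23 to 0.21. Beside Upk3b, the ubiquitin ligase gene Dtx2 differed by -0.23 (SE 0.08, limma adjusted p = 0.215), and Zp3, which encodes a coat protein of the egg, by -0.08 (SE 0.16, adjusted p = 0.883). Both were picked from the neighbours after their values were seen.

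**Figure D2:**
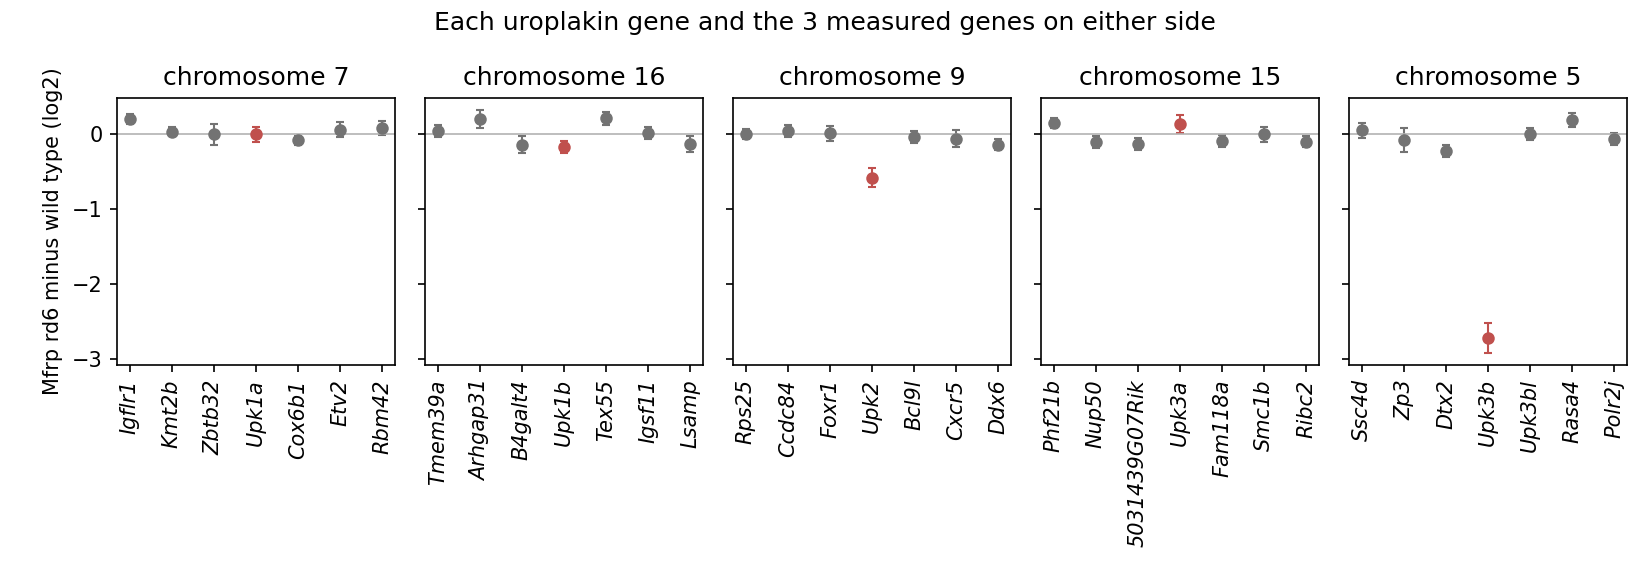
Difference between Mfrp rd6 and wild type (log2, points, with bars of 1 SE) for each uroplakin gene (red) and its 3 measured neighbours on either side (grey), in gene order along the chromosome named above each panel, with no distances drawn to scale. The neighbours lie between -0.23 and 0.21, while Upk3b is at -2.71 and Upk2 at -0.58.

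Upk2 lies on the chromosome that carries the mutated gene, Mfrp. Between Mfrp and Upk2 the RefSeq table holds 19 protein-coding genes. Of these, 18 were measured and 0 were called (limma, adjusted p under 0.05), beside 2.15% of all genes. The median difference of those 18 was -0.04. The Mfrp probe set, which is also annotated to its neighbour C1qtnf5, read 11.20, 11.23 and 11.09 in Mfrp rd6, against 11.36, 11.22, 11.49 and 11.26 in wild type. A probe set shared with another gene does not check the genotype labels.

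Genes with a profile like that of Upk3b were sought among the 460 other genes whose 7 arrays spanned at least 1 log2 unit. Likeness was the root mean square difference between profiles over the 7 arrays, where 0 means identical. With each profile centred on its own mean, the nearest were Stox1, a winged-helix protein (0.276), Htr3a, part of a channel opened by serotonin (0.312), Wfikkn2, a secreted antagonist of growth factors (0.313), Serpine3, of the serpin family (0.424), and Map6d1, of a family that binds microtubules (0.456). All 5 were lower on every Mfrp rd6 array than on any wild-type array, a pattern that a large difference between the groups fixes by itself. Stox1, the nearest, read 6.64, 7.0 and 6.48 in Mfrp rd6, against 8.52, 9.45, 9.12 and 9.17 in wild type.

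Profiles were then compared after the group means were subtracted and each profile was scaled to unit length, which leaves only the variation inside the groups. Nearest to Upk3b were Aplp1, a relative of the amyloid precursor protein (0.0887), Gnal, a G protein subunit (0.0932), Serpine3 (0.167), the receptor partner Ramp2 (0.195) and Tubb4a, a beta tubulin (0.196). In each of these 5, as in Upk3b, wild-type replicate 1 was the lowest wild-type array, which the choice of genes by profile largely fixes. Aplp1 read 8.14, 8.07 and 8.31 in Mfrp rd6, against 8.87, 9.51, 9.52 and 9.33 in wild type, a difference of -1.13 (SE 0.15, limma adjusted p = 0.00497). Serpine3 read 5.91, 6.22 and 6.09 in Mfrp rd6, against 7.75, 10.16, 8.89 and 9.21 in wild type, so that the lowest and the highest wild-type arrays were those of Upk3b.

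Around Upk2 the nearest centred profiles were those of Ankk1, a kinase with ankyrin repeats (0.0715), Hsd17b7, an enzyme of cholesterol synthesis (0.0913), Il1r2, a decoy receptor for interleukin 1 (0.0966), Il1f9, an interleukin of the same family (0.115), and Ablim3, an actin-binding protein (0.126). After the group means were subtracted, the nearest were Ankk1 (0.0949), Tnf, the inflammatory cytokine (0.106), Hsd17b7 (0.127), Myzap, a protein of cell junctions (0.136), and Cyp51, another enzyme of cholesterol synthesis (0.141). In all 8 genes, as in Upk2, Mfrp rd6 replicate 2 was the lowest of the Mfrp rd6 arrays, again largely fixed by how they were chosen. Ankk1 read 9.0, 8.51 and 9.17 in Mfrp rd6, against 9.56, 9.67, 9.65 and 9.41 in wild type, a difference of -0.68 (SE 0.14, limma adjusted p = 0.0453). Dropping any single array except Mfrp rd6 replicate 3 ended the Ankk1 call. Myzap differed by -0.96 (SE 0.14, adjusted p = 0.00983).

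**Figure D3:**
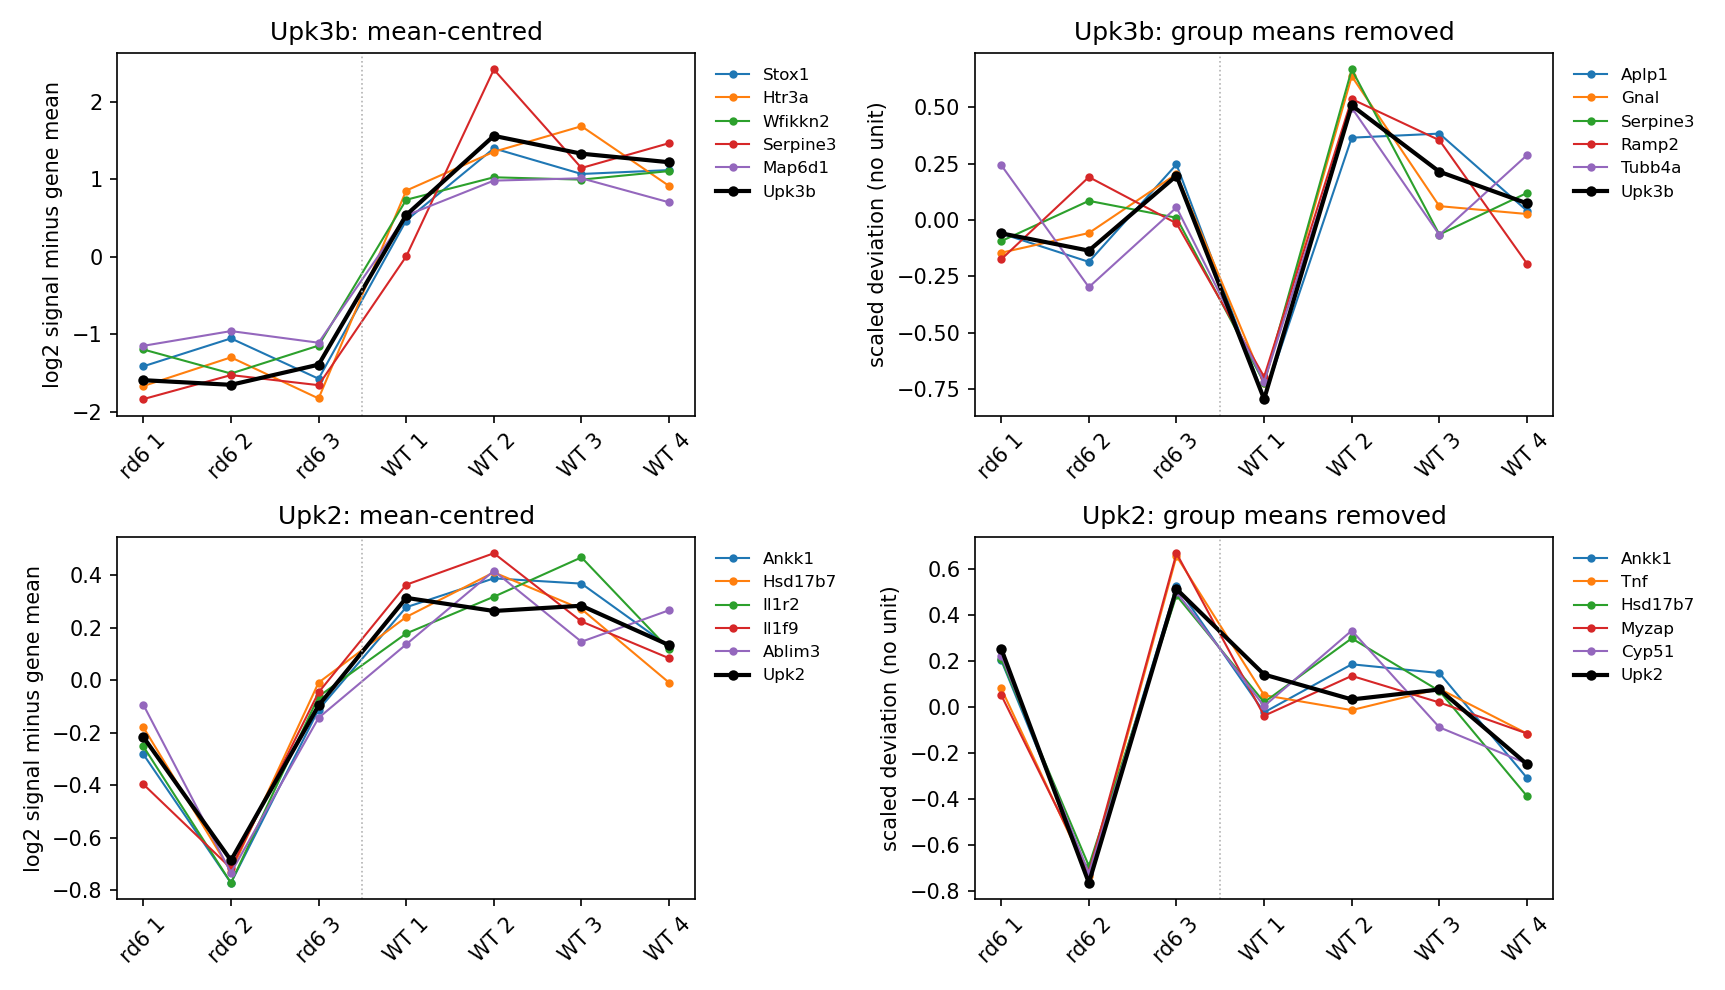
Profiles over the 7 arrays of Upk3b and Upk2 (black) and the 5 genes nearest to each, on the left as log2 signal minus the gene's mean and on the right with group means subtracted and each profile scaled to unit length, with a dotted line between the Mfrp rd6 and wild-type arrays. Wild-type replicate 1 is the lowest wild-type array for Upk3b and its 5 nearest genes on the right, and Mfrp rd6 replicate 2 the lowest Mfrp rd6 array for Upk2 and its nearest genes, as genes chosen for a like profile would show.

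Among the genes that surround uroplakins in the urothelium there was no call in either direction. There were 11 urothelial transcription factors, 13 urothelial keratins and surface proteins and 15 genes of uroplakin traffic and plaque handling. Of these, 0 rose and 0 fell (limma, adjusted p under 0.05), and the median differences were -0.09, -0.07 and -0.07 by list. Of all genes 2.15% were called, a share beside which 0 calls here says little. That share also stands beside the counts of the lists below. Krt20, a keratin of umbrella cells named after its values were seen, averaged 4.58 in Mfrp rd6 and 4.60 in wild type, under the olfactory receptor percentile, while the brightest gene of each list is given next. Elf3, an epithelial transcription factor, averaged 11.77 in Mfrp rd6 and 11.92 in wild type (difference -0.14, adjusted p = 0.483). Krt5, the keratin of basal epithelial cells, averaged 13.15 and 13.13 (difference 0.01, adjusted p = 0.96, with a negative sign after quantile normalization). Mal, a membrane protein of apical transport, averaged 12.29 and 12.46 (difference -0.18, adjusted p = 0.25).

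Among 28 other measured tetraspanins, the wider family of Upk1a and Upk1b, 2 rose and 0 fell, and the median difference was -0.08. The risers were the leukocyte tetraspanins Cd53, by 2.26 (SE 0.11, limma adjusted p = 7.43e-06), and Cd37, by 1.45 (SE 0.11, adjusted p = 0.000169). In the same arrays 15 of 20 microglia and macrophage markers rose and 0 fell, with Tyrobp (3.18) and C1qc (3.11) the largest. The mean of these markers lay between 8.54 and 9.06 on the Mfrp rd6 arrays and between 7.04 and 7.14 on the wild-type arrays, so that as a covariate it leaves little of genotype to estimate. In a fit with it, added after seeing the data, the Upk3b difference was -2.21 while those of Upk2 and Upk1b turned to 1.23 and 0.70, with no call on any of them. What part leukocytes have in the uroplakin values was not tested.

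Mesothelial markers were examined because Upk3b is one itself. Of 19 measured members, none of them a uroplakin, 0 rose and 1 fell, with a median difference of -0.13. The gene that fell was Aldh1a2, an enzyme that makes retinoic acid, at 5.49 ± 0.15 (SD, n = 3) in Mfrp rd6 and 6.25 ± 0.15 (SD, n = 4) in wild type, a difference of -0.76 (SE 0.10, limma adjusted p = 0.00497). In Mfrp rd6 that mean lay under the olfactory receptor percentile of 5.59. Of the 19, 14 had a negative difference, beside 56.7% of all genes with one. Msln (mesothelin) and Wt1, picked after their values were seen, were not among these 14 and do not stand for the list. They averaged 6.51 and 6.31 in Mfrp rd6, against 6.45 and 6.29 in wild type. The list mean lay between 8.02 and 8.13 on the Mfrp rd6 arrays and between 8.09 and 8.23 on the wild-type arrays. Bright keratins weigh on that mean, Krt7, Krt8, Krt18 and Krt19, which averaged from 11.24 (Krt18) to 12.22 (Krt19) in Mfrp rd6. All of them had a negative difference. They also stand in the list of urothelial keratins, and Krt8 and Krt18 in that of RPE markers, so they are not particular to mesothelium.

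Surface epithelium, the tissue in which Upk1b is known in the eye, was represented on every array. Of 23 markers 0 rose and 1 fell, with a median difference of -0.14 and a negative sign in 20, beside 56.7% of all genes. The gene that fell was Pkp3, a plakophilin of desmosomes, by 0.33 (SE 0.07, limma adjusted p = 0.042), but dropping any single array of the 7 ended the call (adjusted p between 0.0607 and 0.148). The list mean was 10.97 to 11.03 on the Mfrp rd6 arrays and 11.15 to 11.23 on the wild-type arrays, without overlap, so that as a covariate it nearly coincides with genotype. In a fit with that covariate the Upk3b difference was -2.13, that of Upk2 -0.73, that of Upk1b -0.04 and that of Upk3a -0.02, with no call on any of them.

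The labelled tissue was present in both groups. Of 22 RPE markers 0 rose and 3 fell, with a median difference of -0.05, and Slc16a1, a lactate carrier (-0.54, limma adjusted p = 0.0266), and Rdh10, a retinol dehydrogenase (-0.54, adjusted p = 0.0143), fell most. With single arrays dropped in turn, the Slc16a1 call was kept when Mfrp rd6 replicate 2 or 3 or wild-type replicate 4 was the one dropped, and the Rdh10 call was lost only when Mfrp rd6 replicate 1 was (adjusted p = 0.0598). The list mean was 11.42 to 11.53 on the Mfrp rd6 arrays and 11.52 to 11.65 on the wild-type arrays, and with it as a covariate the Upk3b difference was -2.84. Of 12 measured markers of ciliary and iris epithelium 0 were called, with a median difference of -0.02 and Bmp4, a growth factor, at -0.30 (adjusted p = 0.0872). Bmp4 was called in 2 of 21 alternative analyses.

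Of 24 skeletal muscle markers 4 rose and 0 fell, led by the calcium pump Atp2a1 (2.21, limma adjusted p = 0.0422) and the calcium-binding protein Pvalb (2.18, adjusted p = 0.0316), and with single arrays dropped both calls were kept only when this was replicate 3 of either group. Their list mean was 7.45 to 8.23 on the Mfrp rd6 arrays and 6.53 to 7.41 on the wild-type arrays. With it as a covariate the difference was -2.79 for Upk3b, -0.32 for Upk2 and 0.02 for Upk1b, with no call on any of them. Upk3b stood at the threshold in that fit (limma adjusted p = 0.05 after rounding). Of 17 measured rod markers 0 passed the test. All 17 markers had a negative difference, beside 56.7% of all genes, from -0.85 to -0.11 with a median of -0.50. Gnb1, a G protein subunit and the brightest of them, was at -0.20 (adjusted p = 0.18), and the list mean was 7.09 to 7.40 on the Mfrp rd6 arrays and 7.31 to 8.39 on the wild-type arrays. The Upk3b difference was -2.61 with the rod mean as a covariate. Of 15 choroidal endothelial markers 2 rose and 0 fell, Plvap (0.57, adjusted p = 0.0459) and Tek (0.55, adjusted p = 0.0389), with a median of 0.41. Dropping any single array except wild-type replicate 4 ended the calls of Plvap and Tek. Of 12 fibroblast and sclera markers 0 rose and 1 fell, the proteoglycan Dcn (-0.92, adjusted p = 0.014), with a median of -0.07. The Dcn call ended when Mfrp rd6 replicate 1 was dropped (adjusted p = 0.0532) and when replicate 2 of that group was (adjusted p = 0.055).

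**Figure D4:**
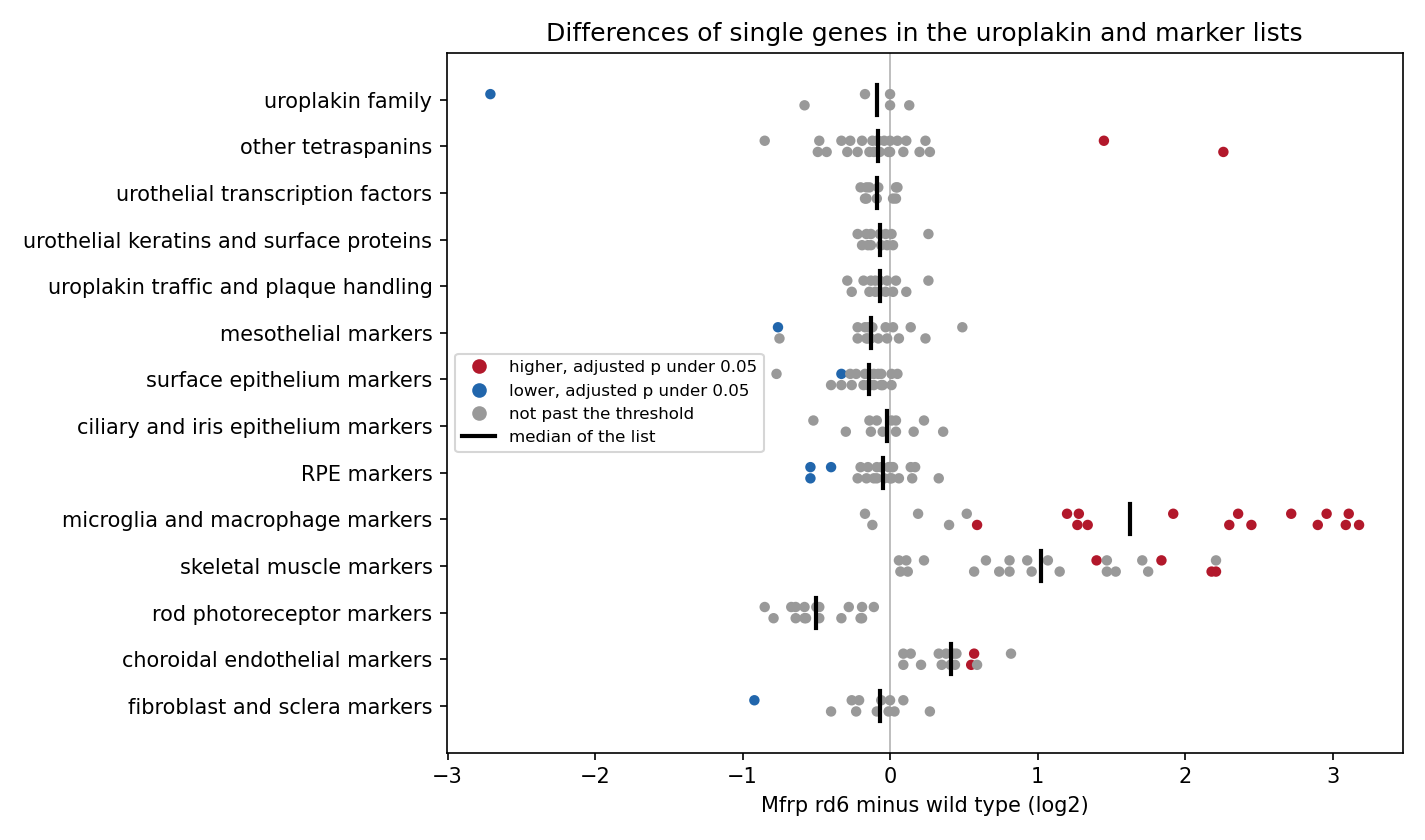
Difference between Mfrp rd6 and wild type (log2) of each measured gene in the uroplakin family (Upk3bl included) and 13 other lists, with red and blue points for genes called higher and lower in Mfrp rd6, grey points for the rest and a black bar at the median of each list. Upk3b at -2.71 is the lowest point of all lists, and the medians of the urothelial lists lie between -0.09 and -0.07.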

How the data were processed

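RNA of 7 RPE pellets was hybridised to Affymetrix whole-transcript arrays. The authors deposited log2 values, 1 per probe set and array, for which the submitters' processing notes name the RMA method and the program Affymetrix Expression Console, without versions. In RMA values, differences of dim probe sets are understated. The values carry 2 decimals, and array medians lay between 6.52 and 6.58.

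Of 35556 probe sets, 21789 had 1 symbol in the platform annotation, and the one with the highest mean was used for each of 19938 genes. Each gene was fitted with limma 3.58.1 (R 4.3.3) (Mfrp rd6 minus wild type, no filter, 5 residual degrees of freedom) with Benjamini-Hochberg adjustment over all genes. The procedure was tested on simulated data. The number of arrays limits the precision.

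The members, the 14 lists and the rules were chosen with earlier results of these data known. Named were the members, Upk3bl, the Mfrp probe set, from each list the 2 called genes with the largest difference or else the brightest gene, called neighbours, and the 5 nearest profiles of members that spanned at least 1 log2 unit. Other genes were named after their values were seen. Alternatives were other normalizations, filters, variance models, covariates, the replicate block and left-out arrays. Python 3.11.15, pandas 2.3.3 and matplotlib 3.10.9 made tables and figures.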

Additional observations from a re-analysis of the deposited data

Results flagged for a closer look

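In wild type, Upk3a had 1 array far from the others, replicate 1 at 6.70 beside 6.21 to 6.25, a gap of 0.918 of the group's range. Upk1a had wild-type replicate 2 at 6.13 beside 6.43 to 6.48, a gap of 0.857 of the range. Both ratios exceed Dixon's 95% critical value for 4 samples, which chance alone passes in about 1 group in 20. The Upk3a and Upk1a gaps were found among 6 genes examined, and the other 4 ratios were 0.636 for Upk1b, 0.667 for Upk3b, 0.714 for Upk3bl and 0.722 for Upk2. Without the array in question, the Upk3a difference was 0.25 and that of Upk1a -0.08.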

How the results depend on the processing

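Upk3b stayed between -2.91 and -2.13 in all 21 alternatives. Upk2 ranged from -0.73 to 1.23, the positive value coming only with the mean of microglia and macrophage markers as covariate. Upk1b turned to 0.70 with that covariate and to 0.02 with the skeletal muscle mean, and Upk3a to -0.02 with the surface epithelium mean. Of the members, 2, Upk3b and Upk2, were called with only genes at or above the median level, with a variance trend and robust moderation and with array weights. With the skeletal muscle, surface epithelium or microglia and macrophage mean as covariate 0 were called. Upk3b stood at the threshold with the skeletal muscle mean (limma adjusted p = 0.05 after rounding). Leaving out 1 array gave 1 to 2 called members, the 2, again Upk3b and Upk2, coming without Mfrp rd6 replicate 3. Over all genes 429 were called. Alternatives gave 718 (variance trend and robust moderation), 679 (array weights), 43 (skeletal muscle covariate), 164 (rod), 272 (RPE), 101 (fibroblast and sclera), 0 (surface epithelium and also microglia and macrophages, both nearly coinciding with genotype), 193 (with Mfrp rd6 replicate 2 and wild-type replicate 3 both left out) and, leaving out 1 array, 211 to 325. Genes called in the lists numbered 30, and 49 with array weights, 8 with the skeletal muscle, 16 with the fibroblast and sclera, and 0 with the surface epithelium or the microglia and macrophage covariate. The microglia and macrophage and the fibroblast and sclera covariates were added after seeing the data.

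The replicate block gave 225 called genes and a Upk3b difference of -2.69, with 1 member called. Deviations from the group means correlated at -0.303, -0.073 and 0.036 between same-numbered arrays, and from -0.266 to 0.369 between the others. These values show no pairing by number, but with so few arrays they cannot exclude one.

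Signs turned for genes with no call or under covariates close to genotype. With the microglia and macrophage covariate the differences were 0.59 (Elf3), 0.36 (Mal), -2.15 (Atp2a1), -2.29 (Pvalb), 0.31 (Dcn), 1.28 (Ankk1), 1.68 (Hsd17b7), 1.35 (Il1r2), 1.29 (Il1f9), 1.52 (Ablim3), 1.09 (Myzap), 2.39 (Cyp51) and 0.76 (Tubb4a). With the surface epithelium covariate they were 0.06 (Elf3), -0.03 (Atp2a1) and 0.04 (Gnal). Krt5 read -0.03 with quantile normalization and -0.01 with the rod covariate, the RPE covariate and both arrays left out, and Tnf ranged from -0.06 to 0.69 when 1 array was left out. The cause was not tested.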
